A study of Mus musculus with 132 samples.

Results

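Ribosomal protein genes encode the protein part of the cytoplasmic ribosome, and they were followed here in single cells of mouse embryos treated with a mimic of miR-381-3p. A gene was a member when its symbol began with Rpl or Rps followed by a digit or a, as in Rpl4 and Rpsa. The kinases named Rps6k, the binding protein Rps19bp1 and annotated pseudogenes were left out. A member also needed at least 20 counts per 1000000 counts (CPM, without mitochondrial genes) when the counts of all cells were pooled. Of 82 rows that matched the names, 80 passed, among 6775 genes of the whole table at the same minimum. The 80 members were all annotated as protein coding, with 48 of the large and 32 of the small subunit, and 4 lay on the X chromosome. Members were thus chosen by their name and selected on their pooled level over all cells, so that level is given as a description. No value of a comparison between groups entered this rule, though the rule was set with earlier results of these data known.

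Each ribosome joins a small subunit, which reads the messenger RNA, to a large subunit, which forms the peptide bond and holds the exit tunnel for the new protein. Most ribosomal proteins are needed in equal amounts, and their messenger RNAs are short, abundant and controlled together, in part through a run of pyrimidines at the transcript start that ties their translation to mTORC1 and Larp1. A few genes have paralogs, which encode a nearly equal protein and are often used in germ cells or under stress. In the preimplantation embryo ribosomes inherited from the oocyte are progressively replaced by ribosomes made by the embryo.

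Embryos came from matings of C57BL/6 x DBA F1 females with F1 males of the same cross (C57BL/6NCrl and DBA/2NHsd in the study's methods), and were placed in KSOM medium at the 2-cell stage. Treated embryos received the synthetic miR-381-3p mimic, and control embryos a scrambled mimic, at 5 or 10 µM. Cells were dissociated at the 8-cell stage (E2.5) or the 32-cell stage (E3.5) and sequenced with Smart-seq2, which reads polyadenylated RNA over the whole transcript and carries no molecular identifiers. There were 30 cells in 8-cell control, 24 in 8-cell mimic, 39 in 32-cell control and 39 in 32-cell mimic. The labels give no dose and no embryo for a cell. The study pairs the higher dose with the earlier stage, so dose and stage cannot be told apart. With 3 to 5 embryos per group and time and no map from cells to embryos, each group counted as 1 sample, and no test between groups was possible. The differences below are therefore descriptions of these cells. Intervals on pooled values cover counting error only, and sequenced reads are not independent molecules. In these data fewer transcripts of a gene and more RNA from all other genes in a cell cannot be told apart, because every value is a share of that cell's counts.

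Total counts per cell ran from 544866 to 3461022 (median 1260663), and genes with a count from 3234 to 8973 (median 7071). Cells carry a number in their title, and the cells of a group come in blocks of neighbouring numbers, here called runs. At both stages the numbering also passes directly from a run of control to a run of mimic cells or back. The labels do not say what the numbers stand for and give no plate or day. Sex-linked transcripts also ran with the groups. A cell was called an Xist cell when Xist, the RNA that coats a silenced X chromosome in female cells, had at least 20 CPM and Y-linked transcripts less, and a Y cell when Y-linked transcripts had at least 20 CPM and exceeded Xist. By this rule all 39 cells of 32-cell control were Y cells and all 39 of 32-cell mimic were Xist cells. The 8-cell control group held 23 Xist cells and 7 Y cells, and the 8-cell mimic group held 11 Xist cells, 7 Y cells and 6 others. At the 32-cell stage the mimic and the sex-linked transcripts cannot be told apart, and values within a type are given for the results for which they were computed.

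The mature miR-381-3p, taken from RefSeq on GRCm38.p6 (chr12:109726870-109726891, plus strand), is shown because it defines the treatment, with its seed in capitals (bases 2 to 8).
mmu-miR-381-3p: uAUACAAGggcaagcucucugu

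Few ribosomal protein transcripts carried a match to this seed. The 8-base match CTTGTATA stood in the longest annotated 3′ UTR of 0 of the 80 members, against 260 of the 6659 genes at the same minimum with an annotated 3′ UTR (3.9%). The 7-base match CTTGTAT was found in 4 members (5%), namely Rpl22, Rpl35a, Rpl9 and Rps20, against 929 genes (14%). The members' 3′ UTRs were short, with a median of 166.5 bases against 1188. These are matches of letters in annotated sequence and no binding was measured.

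Ribosomal protein transcripts were abundant and found in nearly every cell. Their pooled levels ran from 43.61 to 2124 CPM with a median of 256.4, against 71.26 for all 6775 genes, and 78 of the 80 members had a count in every cell of the series. The median was 206.3 CPM for large subunit members and 303 CPM for small subunit members. Just above the minimum lay Rpl22l1 (43.61 CPM), Rpl10l (48.78 CPM) and Rpl28 (59.22 CPM), and below it Rps27rt (2.38 CPM) and Rpl3l (0.0281 CPM, in 2 cells). Per kilobase of annotated transcript, high members were Rpl4 at 1381 CPM per kilobase, Rpl41 at 1306 and Rps14 at 1153, against a median of 329.1 over members. Rpl4 lies on the wall of the exit tunnel, and Rps14 belongs to the small subunit. Rpl41 is the smallest ribosomal protein and bridges the subunits.

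The spread between cells of a group was small for members. The SD of log2(CPM + 1) over the cells of a group had a median over members of 0.346 in 8-cell control, 0.439 in 8-cell mimic, 0.411 in 32-cell control and 0.486 in 32-cell mimic. Among the 71 members at 100 CPM or more it was 0.326, 0.421, 0.404 and 0.480, where all 2523 genes at that level had 1.057, 1.772, 1.121 and 1.279. Rpl10l varied most among members in every group (SD from 1.820 to 2.904). The least variable member was Rps14 in 8-cell control (0.220), Rpl24 in 8-cell mimic (0.274) and Rpl4 in both 32-cell groups (0.215 and 0.236).

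The members together took a smaller share of the counts at the 32-cell stage than at the 8-cell stage, and a larger share in mimic cells than in control cells at both stages. Summed over members, 8-cell control cells ran from 20630 to 35670 CPM (median 27294) and pooled to 27439 CPM (95% Poisson interval 27385 to 27492), or 2.74% of counts. The 32-cell control cells ran from 17166 to 35962 CPM (median 21064) and pooled to 21934 CPM (21896 to 21973), or 2.19%. The cells of the 2 stages overlapped, and 4 of the 39 cells at the 32-cell stage exceeded the 8-cell median.

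In mimic cells the summed level ran from 24402 to 51584 CPM at the 8-cell stage (median 29938) and pooled to 32788 CPM (32724 to 32852), or 3.28%. At the 32-cell stage it ran from 17036 to 52049 CPM (median 23152) and pooled to 24197 CPM (24155 to 24239), or 2.42%. Again 4 of 39 cells at the later stage lay above the median of the earlier. The pooled ratio of the later to the earlier stage was 0.799 in control and 0.738 in mimic. The ratio of mimic to control was 1.19 at the 8-cell stage, where 21 of 24 mimic cells exceeded the control median, and 1.1 at the 32-cell stage, where 27 of 39 did. Within Y cells the stage ratio in control was 0.888 (21934 over 24703 CPM), and within Xist cells that in mimic was 0.756 (24197 over 32008 CPM). The 8-cell ratio of mimic to control was 1.36 in Y cells (33717 over 24703 CPM) and 1.12 in Xist cells (32008 over 28590 CPM). These ratios kept the direction of those over all cells but not their size.

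Single cells and runs bore on these levels. The 4 highest cells in the plot of summed level were those titled 84, 70 and 65 in 8-cell mimic, at 51584, 50350 and 48528 CPM, and a cell of run 3 of 32-cell mimic at 52049 CPM. They had 6341, 5954, 3234 and 5910 genes detected. Without the 4 cells of 8-cell mimic under 6000 genes the group pooled to 30882 CPM, and without the single such cell 32-cell mimic pooled to 23752 CPM and 32-cell control to 21789 CPM. By run, 32-cell control gave 21242 and 22965 CPM and 32-cell mimic 21655, 26390 and 25068 CPM. The first mimic run thus lay between the control runs, and the other mimic runs above them.

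**Figure D1:**
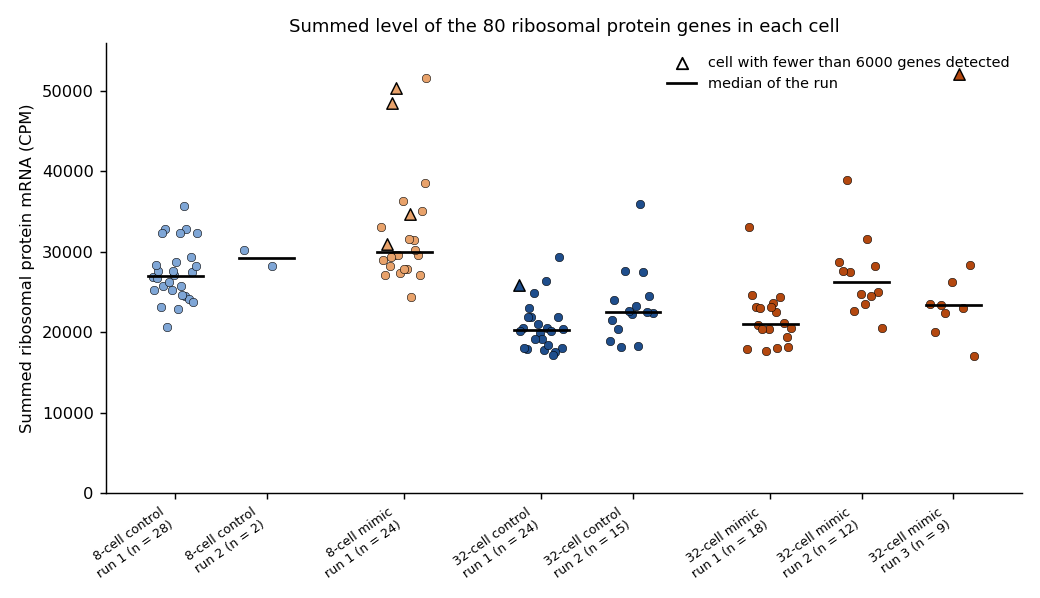
Summed level of the 80 ribosomal protein genes in each cell, in CPM without mitochondrial genes, by group and run of title numbers. Each point is a cell, triangles are cells with fewer than 6000 genes detected and bars are run medians. The 8-cell mimic cells reach 51584 CPM, and most 32-cell cells lie below the 8-cell medians.

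Between the 8-cell and the 32-cell stage most members were lower in control cells. The median log2 difference over the 80 members, on the scale of pooled CPM + 1, was -0.32, against 0.20 for all 6775 genes. Only 7 of the 80 members were above 0, namely Rps18, Rpl13a, Rpl23a, Rpl22, Rps27l, Rpl4 and Rpl22l1. The large and the small subunit had medians of -0.29 and -0.33. A difference of at least 1.5-fold was reached by 9 members in the lower direction, where 26.7% of all genes were, and by 1 in the higher direction, where 39% of all genes were. Most members thus shared the sign of the difference and stayed under this size. The count of lower members depended on the cells used. It was 15 without run 2 of 32-cell control, where 27.7% of all genes were lower, and 20 without run 1 of 8-cell control, which leaves 2 cells, where 26.2% were. Among Y cells alone it was 3, where 27.5% of all genes were lower.

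Rpl41 was the member with the largest stage difference. The 30 control cells at the 8-cell stage ran from 821.6 to 1537 CPM (median 1041), and the 39 cells at the 32-cell stage from 169.8 to 496.2 CPM (median 252.7). No cell of the later stage reached the lowest cell of the earlier, a separation seen in 1.14% of all genes and in no other member. Pooled, Rpl41 was at 1112 and 269.1 CPM, a log2 difference of -2.04 (0.242-fold, 95% interval 0.238 to 0.247), and it was -2.04 among Y cells too. In mimic cells it ran from 423.9 to 1553 CPM (median 924.6) and from 142.5 to 588.3 CPM (median 272.4), which overlapped, with a log2 difference of -1.76. Its coding sequence, from the GENCODE M21 transcript on GRCm38 (gene at chr10:128548114-128549305, minus strand), is shown for its size.
Rpl41: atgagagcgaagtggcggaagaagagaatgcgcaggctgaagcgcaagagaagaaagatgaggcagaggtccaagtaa

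With its stop codon this is 78 bases long. Of the 40-base stretches of the Rpl41 transcript, 59.3% also occur in other counted genes, so reads may be shared. Its near copy Gm10076 was at 0.738 to 0.898 CPM in the 4 groups.

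The other large stage differences in control cells were those of the X-linked members Rpl39, Rpl36a, Rpl10 and Rps4x, described with the sex-linked transcripts below, of Rpl29 (-0.79), and, nearer the limit of 1.5-fold, of Rpl7l1 (-0.65), Rpl27 (-0.63) and Rps13 (-0.60). That of Rpl29 depended on the cells used and ran from -1.55 to -0.43 over the alternatives. It was -1.06 without the 8-cell control cells titled 1 to 8, a range chosen after the values were seen. On the higher side stood Rpl22l1, a paralog of the RNA-binding protein Rpl22. Its 8-cell control cells ran from 1.97 to 100.4 CPM (median 21.83) and its 32-cell control cells from 8.926 to 169.9 CPM (median 46.15), with 33 of 39 above the earlier median and a log2 difference of 1.10 (2.19-fold, 2.04 to 2.36). Among control Y cells alone Rpl22l1 was at 35.94 CPM at the 8-cell and 59.18 CPM at the 32-cell stage. Over all control cells Rpl22 itself differed by 0.22, Rps27l by 0.26 and Rpl4 by 0.35. Rpl4 had 36 of 39 cells above the 8-cell median, at 1740 and 2214 CPM pooled.

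In mimic cells the stage difference of the members was larger. The median log2 difference was -0.51, against 0.19 for all genes, and 7 of 80 members were above 0. The subunits had medians of -0.49 (large) and -0.54 (small). At least 1.5-fold lower were 31 members, where 27% of all genes were, and 1 was higher, where 38.4% were. In none of the members were the cells of the 2 stages apart, as in 0.531% of all genes. Without run 1 of 32-cell mimic the lower count was 19, where 28% of all genes were lower. It was 40 without run 2, where 28% were, and 34 without run 3, where 26.5% were. With scaling by size factors it was 11, where 21.6% were. Among Xist cells alone (39 against 11) 32 members were lower, where 27.2% of all genes were, and 1 was higher, where 38.1% were.

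The mimic cells' stage differences were led by Rpl41 and by Rpl29, a large subunit protein. Rpl29 ran from 89.58 to 250.4 CPM (median 123.8) in 8-cell mimic and from 17.4 to 112.4 CPM (median 38.28) in 32-cell mimic, where no cell exceeded the 8-cell median and the log2 difference was -1.50. Rpl27 (log2 -0.98) and Rpl37a (-0.86), also of the large subunit, followed, from 201.9 to 101.7 and from 185.6 to 101.4 CPM pooled. Higher at the 32-cell stage were Rps27l (0.77, from 299.8 to 510.7 CPM, 37 of 39 cells above the earlier median), Rpl10l (0.54), Rps2 (0.41) and Rpl39l (0.25). The difference of Rpl10l was -0.035 without run 2 of 32-cell mimic. Rps2 lies near the path by which messenger RNA enters the ribosome.

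**Figure D2:**
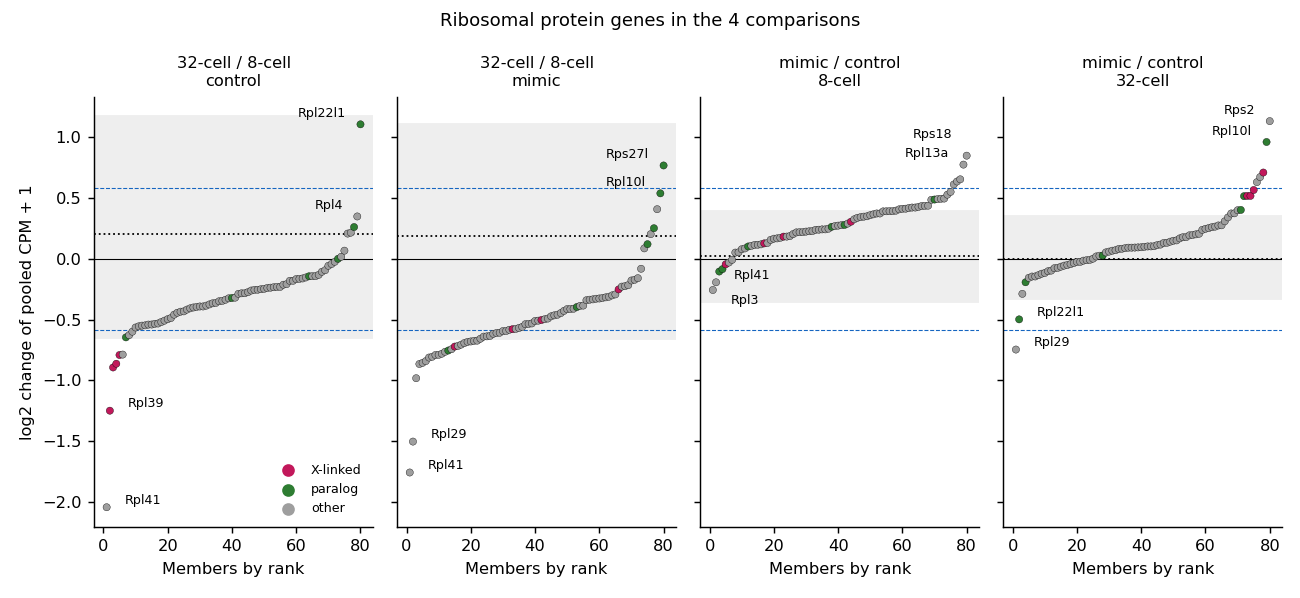
Log2 differences of pooled CPM + 1 for the 80 members, ranked within each of the 4 comparisons. Points are genes coloured as X-linked members, paralogs or others, the grey band spans the first to the third quartile of all 6775 genes, the dotted line is their median and dashed lines mark 1.5-fold. Most members lie below 0 between stages and above 0 in 8-cell mimic against control.

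With the mimic, most members were slightly higher at the 8-cell stage. The median log2 difference from control was 0.27, against 0.019 for all genes, and 73 of 80 members were above 0. The subunits had medians of 0.28 (large) and 0.27 (small). At least 1.5-fold higher were 5 members, among them Rps18, Rpl13a, Rpl7a and Rpl23a, where 16.1% of all genes were, and 0 were lower, where 15% were. Cells of the groups overlapped in every member, and 0% of all genes were apart. In Y cells alone (7 mimic, 7 control) 31 members were at least 1.5-fold higher and 1 lower, where 27.1% and 27.4% of all genes were. In Xist cells alone (11 mimic, 23 control) 3 were higher, where 19.1% were. Without cells under 6000 genes 3 were higher, where 15.8% of all genes were, and without run 1 of 8-cell control, which leaves 2 cells, 9 were, where 38.5% were.

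Rpl13a, a large subunit protein known also for silencing of inflammatory transcripts when released from the ribosome, ran from 291.5 to 910.3 CPM (median 536.6) in 8-cell control and from 649.5 to 1852 CPM (median 873.9) in 8-cell mimic. All 24 mimic cells lay above the control median though the groups overlapped, and the pooled log2 difference was 0.77 (1.71-fold, 1.68 to 1.74). Rpl7a, another large subunit protein, ran from 229.2 to 591.4 CPM (median 401.2) and from 378.4 to 1050 CPM (median 563.8), with a difference of 0.65 and 22 of 24 cells above the control median. Rpl23a, which lies at the mouth of the exit tunnel, differed by 0.64 and had 23 of 24 cells above. At the 32-cell stage the same 3 genes differed by -0.009, 0.11 and 0.10. On the lower side at the 8-cell stage no member was past 1.5-fold, and the largest differences were those of Rpl3 (-0.26), which reaches the peptide-forming centre, Rpl41 (-0.19), Rps27l (-0.10) and Rpl7l1 (-0.085).

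At the 32-cell stage the members as a group differed little with the mimic. The median log2 difference was 0.096, against 0.001 for all genes, with 56 of 80 members above 0 and medians of 0.093 and 0.10 for the large and the small subunit. At least 1.5-fold higher were 5 members (14.4% of all genes) and lower was 1 (13.3% of all genes). Cells of the groups overlapped in every member, and in all but 0.0295% of genes. The 5 higher members were Rps2, Rpl10l, Rpl39, Rps18 and Rpl12, and the lower was Rpl29. The count of higher members was 8 without run 1 of 32-cell mimic (14.4% of all genes), 3 without run 2 (15%) and 2 without run 1 of 32-cell control (17.4%). Without run 3 of 32-cell mimic or run 1 of 32-cell control 2 members were lower (13.4% of all genes in both), and without run 1 of 32-cell mimic 0 were (17.2%).

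Rps2 had the largest difference among members at this stage. It ran from 60.81 to 384.3 CPM (median 163.8) in 32-cell control and from 142 to 1108 CPM (median 349.5) in 32-cell mimic, with 38 of 39 mimic cells above the control median. The pooled levels of 175.2 and 385 CPM gave a log2 difference of 1.13 (2.2-fold, 2.15 to 2.25). The higher of the control runs (190.5 CPM) lay below all mimic runs (347.6, 305.7 and 518.7 CPM). At the 8-cell stage the difference was 0.49 with 16 of 24 mimic cells above the control median. Control cells varied there with title number, with a median of 93.8 CPM in the 8 cells titled 1 to 8, 228 CPM in those titled 9 to 16 and 261 CPM in those titled 17 to 30. Without the cells titled 1 to 8, a range chosen after the values were seen, the difference was 0.29.

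Rpl29 was lower with the mimic at the 32-cell stage. It ran from 47.78 to 133.9 CPM (median 73.7) in 32-cell control and from 17.4 to 112.4 CPM (median 38.28) in 32-cell mimic, where 3 of 39 cells exceeded the control median. The log2 difference was -0.75 (0.591-fold, 0.562 to 0.621). The control runs were at 73.81 and 84.25 CPM and the mimic runs at 32.57, 41.55 and 68.28 CPM. Rpl29 also varied with title number inside a control group. In 8-cell control the 8 cells titled 1 to 8 lay between 24.6 and 64.7 CPM, the lowest of the 7 titled 9 to 16 was at 86.6 CPM and the highest of the 13 titled 17 to 30 at 269 CPM. The 8-cell difference with the mimic was -0.031 (0.978-fold, 0.939 to 1.02), with 14 of 24 mimic cells above the control median, and it was -0.30 without the cells titled 1 to 8 and from -0.79 to 0.45 over the alternatives run. These ranges of titles were chosen after the values were seen. Whether these cells share an embryo is not given by the labels. A near copy, Gm3550, differs from Rpl29 at 10 of 483 coding bases, and the summed counts of both gave -0.75 at the 32-cell stage.

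Rpl10l and Rpl12 were the other higher members not on the X chromosome, beside Rps18. Rpl12, of the stalk base where translation factors bind, ran from 58.53 to 358.1 CPM (median 147.1) in control and from 123.4 to 845.3 CPM (median 187.9) in mimic, a difference of 0.63 with 31 of 39 cells above. Rpl10l varied with the run. It was at 15.22 and 65.7 CPM in the control runs and at 24.31, 118.9 and 75.35 CPM in the mimic runs, so the runs of the treatments overlapped behind its pooled difference of 0.96. On the lower side below 1.5-fold were Rpl22l1 (-0.50), Rpl22 (-0.29) and Rpl7l1 (-0.19).

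Rps18, a protein of the small subunit's head, led the 8-cell mimic comparison, but its reads could be split with a copy. It ran from 104.7 to 322.6 CPM (median 177.5) in 8-cell control and from 178.4 to 692.2 CPM (median 334.4) in 8-cell mimic, with all 24 mimic cells above the control median and a log2 difference of 0.85. In 32-cell cells it ran from 120.7 to 456.8 CPM (median 180.5) and from 180.2 to 918.3 CPM (median 294.8), a difference of 0.67 with 38 of 39 above. Gm10260, annotated as protein coding at chr13:97760072-97760632 (minus strand, GRCm38), differs from Rps18 at 4 of 459 coding bases (99.1% identical).

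Counts for Gm10260 went the other way. It ran from 30.64 to 156.2 CPM (median 78.3) in 8-cell control and from 0 to 91.74 CPM (median 3.111) in 8-cell mimic, a pooled log2 difference of -1.70. In 32-cell cells it ran from 35.38 to 196.3 CPM (median 107.3) in control and from 0 to 102.6 CPM (median 0.404) in mimic, a difference of -2.13. The sum of both genes gave 275.3, 371.3, 298.7 and 333 CPM in the 4 groups, and the mimic difference of the sum was 0.43 at the 8-cell stage and 0.16 at the 32-cell stage. The difference of Rps18 past 1.5-fold was therefore lost when the copy was added, a step chosen after the values were seen. Of the 40-base stretches of the Rps18 transcript, 84.1% also occurred in other counted genes.

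The share of Gm10260 in this sum came in steps along the title numbers. It was 38.7 to 49.6% in the 24 cells of 32-cell control run 1 and 15.1 to 28% in the 15 cells of run 2. It was at most 0.743% in the 18 cells of 32-cell mimic run 1, 15 to 30.4% in the 12 cells of run 2 and at most 0.619% in the 9 cells of run 3. The 8-cell mimic group held both kinds, with 10 to 26.3% in cells titled 63 to 70 and at most 4.1% in cells titled 71 to 86, and 8-cell control held 36.9 to 50% in cells titled 1 to 16 and 17.8 to 24.2% in cells titled 17 to 30. These title ranges were also set after the values were seen. Whether the cells of a step share an embryo cannot be read from the labels.

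**Figure D3:**
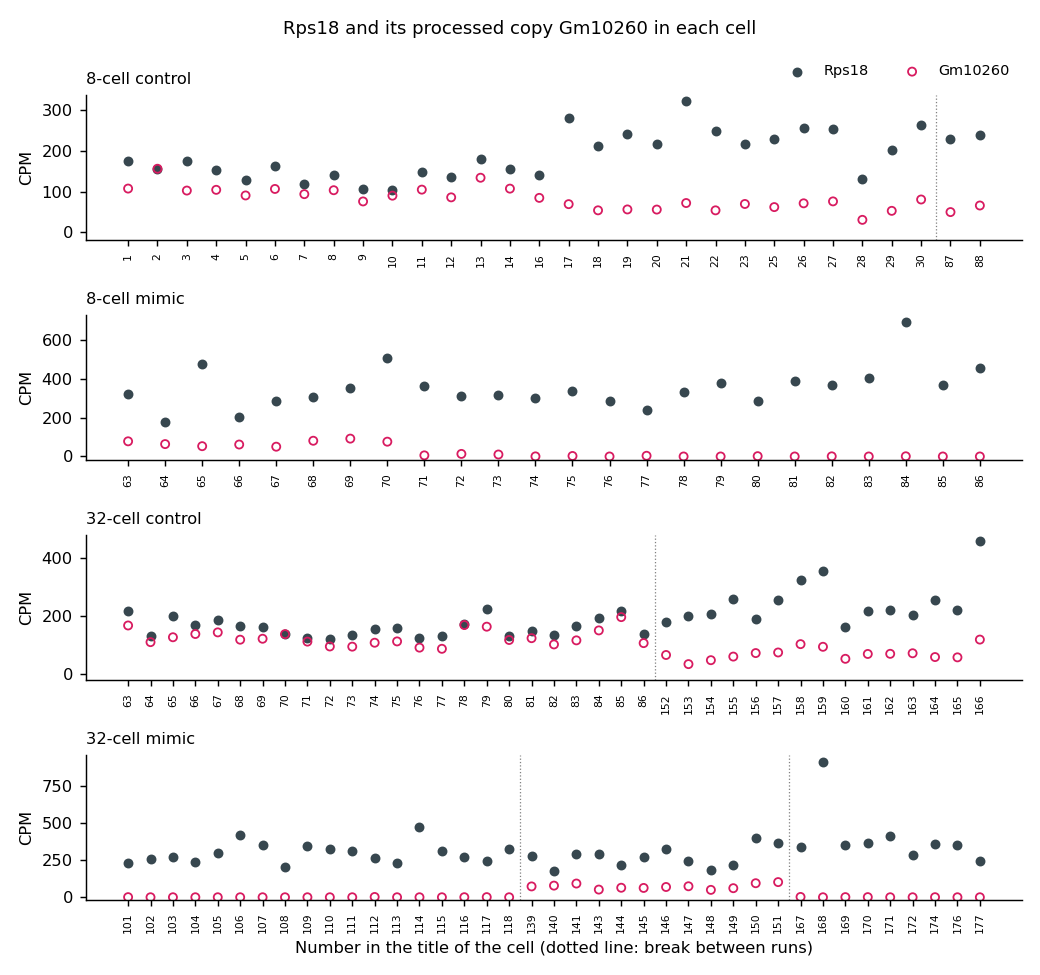
Rps18 (filled points) and its near copy Gm10260 (open circles) in CPM in each cell, in order of title number, with a panel and its own y axis for each group and dotted lines at breaks between runs. Gm10260 is near 0 in runs 1 and 3 of 32-cell mimic and in most 8-cell mimic cells, while it is present in every control cell.

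The X-linked members followed the sex-linked transcripts of the cell within a single treatment and stage. Among 8-cell control cells, all 4 were higher in the 23 Xist cells than in the 7 Y cells with no overlap, a separation found in 0.133% of all genes and in 6 of 195 X-linked genes. Rpl10, a large subunit protein that joins late in assembly, ran from 448.7 to 947.6 CPM in Xist cells and from 217.3 to 376 CPM in Y cells. Rps4x, of the small subunit, ran from 605.8 to 1084 CPM and from 281.4 to 499 CPM. Rpl36a ran from 202.9 to 417.7 CPM and from 90.14 to 168.5 CPM, and Rpl39, which lines the exit tunnel, from 71.65 to 208.6 CPM and from 52.43 to 71.34 CPM. The pooled log2 differences were 1.15, 1.19, 1.08 and 1.17 in this order, with a median of 1.16, while the other members had a median of 0.18 and all X-linked genes 0.90.

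Among 8-cell mimic cells the same difference (11 Xist cells, 7 Y cells) had a median of 0.97 for the X-linked members, -0.13 for the other members and 0.98 for all X-linked genes. There only Rpl10 was without overlap among members, at 523.3 to 933.7 CPM and 264.9 to 369.7 CPM, again against 0.133% of all genes.

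These types were not shared evenly between stages and treatments. Between stages in control cells their differences were -1.25 for Rpl39, -0.89 for Rpl36a, -0.86 for Rpl10 and -0.79 for Rps4x, with 0, 1, 1 and 0 of 39 cells above the 8-cell median. Among Y cells alone (39 against 7) the same differences were -0.34, -0.056, 0.031 and 0.14, while the other members kept a median of -0.20 and all genes had 0.27. Among Xist cells of mimic embryos (39 against 11) they were -0.92 for Rpl39, -0.66 for Rpl36a, -0.49 for Rpl10 and -0.69 for Rps4x, where the other members had a median of -0.48. Over all mimic cells they were -0.72, -0.50, -0.25 and -0.58 in the same order, so the values within the type were no smaller in size.

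With the mimic at the 32-cell stage all 4 X-linked members were higher, in Xist cells set against Y cells. Rpl39 had its lowest cell at 8.261 CPM and its median cell at 41.31 CPM in control, and at 28.13 and 68.65 CPM in mimic, a difference of 0.71 with 32 of 39 cells above the control median. Rpl10 ran from 145.8 to 787.9 CPM (median 286) and from 295.5 to 1038 CPM (median 466.1), with all 39 mimic cells above the control median and a difference of 0.56. Rpl36a and Rps4x each differed by 0.52. The median of 0.54 over the 4 stood beside 0.093 for the other members, 0.39 for all 195 X-linked genes and -0.006 for genes not on the X chromosome. At the 8-cell stage their median difference with the mimic was 0.15 over all cells, 0.20 in Y cells and 0.077 in Xist cells.

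**Figure D4:**
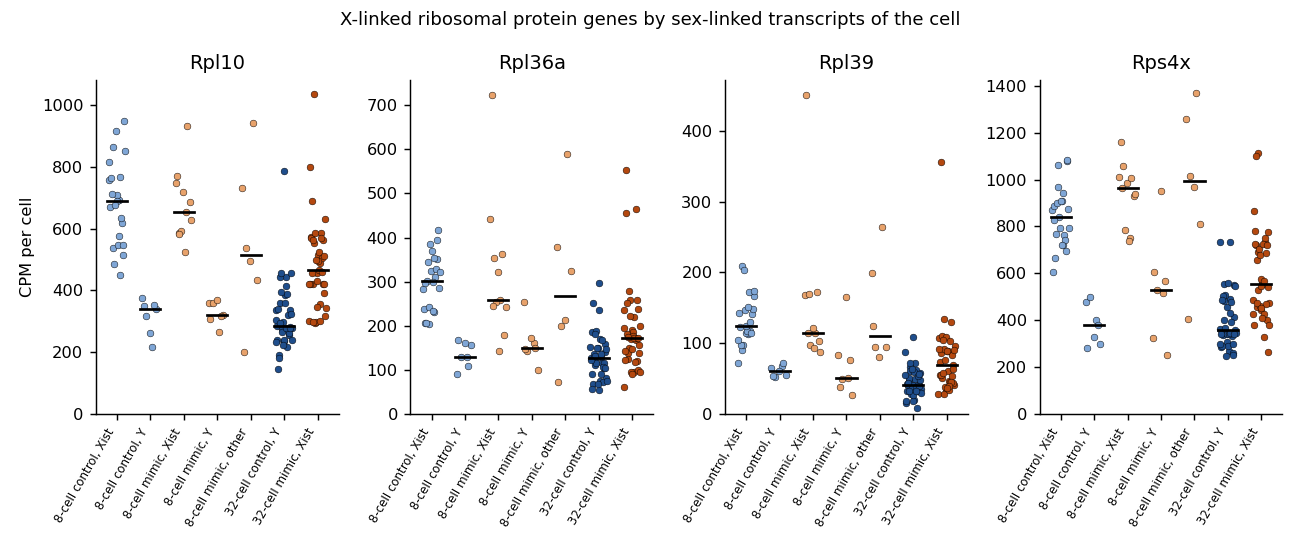
CPM of the 4 X-linked ribosomal protein genes in each cell, by group and by whether the cell was an Xist cell, a Y cell or neither (other). Points are cells and bars are medians. In 8-cell control the 23 Xist cells lie above the 7 Y cells for every gene, and at the 32-cell stage control holds only Y cells and mimic only Xist cells.

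Most paralogs made up more of their pair at the later stage when all cells were pooled. Of the 6 pairs, 5 had a larger share of paralog counts at the 32-cell stage in both treatments, and Rpl7l1 with Rpl7 had a smaller one. In 3 of these 5 pairs the partner (Rpl39, Rpl36a, Rpl10) is X-linked, so the shares also ran with the sex-linked types. Among Y cells of control embryos (39 against 7) 4 of the 6 shares were larger at the later stage, while that of Rpl36al was 34.7% at the 8-cell and 31% at the 32-cell stage. Among Xist cells of mimic embryos (39 against 11) 5 were. Rpl39l, best known from male germ cells, differs from Rpl39 at 23 coding bases (85.3% identical). The pair is shown because the autosomal copy outweighed the X-linked gene, with the differing bases in capitals and both sequences from GENCODE M21 on GRCm38 (Rpl39 at chrX:37082520-37085402, minus strand, and Rpl39l at chr16:10170226-10174911, plus strand).
Rpl39: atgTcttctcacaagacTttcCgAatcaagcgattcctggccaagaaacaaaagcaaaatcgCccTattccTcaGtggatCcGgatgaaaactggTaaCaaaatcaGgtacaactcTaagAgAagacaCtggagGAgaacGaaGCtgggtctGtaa
Rpl39l: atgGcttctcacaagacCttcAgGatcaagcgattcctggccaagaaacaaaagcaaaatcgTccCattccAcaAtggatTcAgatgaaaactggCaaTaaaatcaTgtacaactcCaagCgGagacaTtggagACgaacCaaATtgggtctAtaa

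Rpl39l held 54.3% of the pair's counts in 8-cell control, 55.7% in 8-cell mimic, 74.1% in 32-cell control and 71.3% in 32-cell mimic. Per kilobase it exceeded Rpl39 in every group, with ratios of 1.32, 1.4, 3.19 and 2.77. Its own pooled level was 134.4, 161.4, 134.3 and 192.3 CPM. Among control Y cells its share was 62.1% at the 8-cell and 74.1% at the 32-cell stage, with Rpl39l at 97.53 and 134.3 CPM and Rpl39 at 59.47 and 46.91 CPM. Among mimic Xist cells the share was 53.8% and 71.3%. With the mimic at the 32-cell stage Rpl39l was 0.52 higher on the log2 scale, with 33 of 39 cells above the control median.

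Rps27l, a target of p53 and a paralog of the zinc finger protein Rps27, differs from its partner at 61 of 255 coding bases (76.1% identical). This pair is shown because its balance differed with the mimic in opposite directions at the 2 stages. Capitals mark differing bases, on the same build (Rps27 at chr3:90212522-90213651, minus strand, and Rps27l at chr9:66946086-66949516, plus strand).
Rps27: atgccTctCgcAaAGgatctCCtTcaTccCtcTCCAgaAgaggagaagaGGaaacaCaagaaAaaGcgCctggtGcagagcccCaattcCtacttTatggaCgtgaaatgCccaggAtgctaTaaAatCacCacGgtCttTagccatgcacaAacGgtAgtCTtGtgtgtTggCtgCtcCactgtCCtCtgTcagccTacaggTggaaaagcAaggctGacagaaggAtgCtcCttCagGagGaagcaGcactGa
Rps27l: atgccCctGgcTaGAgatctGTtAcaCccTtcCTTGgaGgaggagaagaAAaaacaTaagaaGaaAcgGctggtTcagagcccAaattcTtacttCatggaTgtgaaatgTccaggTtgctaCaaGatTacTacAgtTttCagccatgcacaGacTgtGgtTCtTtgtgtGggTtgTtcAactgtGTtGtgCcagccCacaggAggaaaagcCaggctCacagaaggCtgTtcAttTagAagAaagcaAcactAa

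Per kilobase Rps27l stood at 0.711 of Rps27 in 8-cell control, 0.504 in 8-cell mimic, 1.03 in 32-cell control and 1.3 in 32-cell mimic. Rps27l ran from 201.3 to 999.6 CPM (median 467.4) in 32-cell mimic and from 179.3 to 719.4 CPM (median 350.8) in 32-cell control, a log2 difference of 0.40 with 32 of 39 cells above the control median, while Rps27 differed by 0.070. At the 8-cell stage Rps27l differed by -0.10 and Rps27 by 0.39. Nearly all 40-base stretches of Rps27 (98.7%) also occurred in other counted genes. Its near copy Rps27rt took 0.740 to 0.858% of the counts of both in the 4 groups, and how reads were divided among other copies was not tested.

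The remaining pairs had lower ratios per kilobase. Rpl22l1 stood at 0.230 of Rpl22 in 8-cell control, 0.230 in 8-cell mimic, 0.434 in 32-cell control and 0.373 in 32-cell mimic. Its share of the pair's counts also ran with the sex-linked types. In 8-cell control it was 17.4% in Xist cells and 31.6% in Y cells, against 33.6% in 32-cell control, all Y cells. Among Xist cells of mimic embryos it was 19% at the 8-cell and 30.3% at the 32-cell stage. Rpl36al, an autosomal copy of Rpl36a, stood at 0.277, 0.273, 0.412 and 0.293 of its X-linked partner in the same order of groups. Rpl10l, which takes the place of Rpl10 in meiotic male germ cells, was at 0.0527, 0.0662, 0.0866 and 0.115 of Rpl10. It had a count in 28 of 30, 17 of 24, 21 of 39 and 35 of 39 cells, and so lacked a count in some cells of every group. Its share of the pair's counts also depended on the run. It was 4.54 and 17% in the runs of 32-cell control, against 6.54% and, in 2 cells, 4.16% in those of 8-cell control. In 32-cell mimic it was 5.09, 18.1 and 14.8%, against 7.82% in 8-cell mimic. The first run of each 32-cell group thus lay below the larger or only run of the earlier stage, and the other runs above it. Rpl7l1 was the pair member with the opposite course, at 0.558, 0.480, 0.467 and 0.402 of Rpl7.

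**Figure D5:**
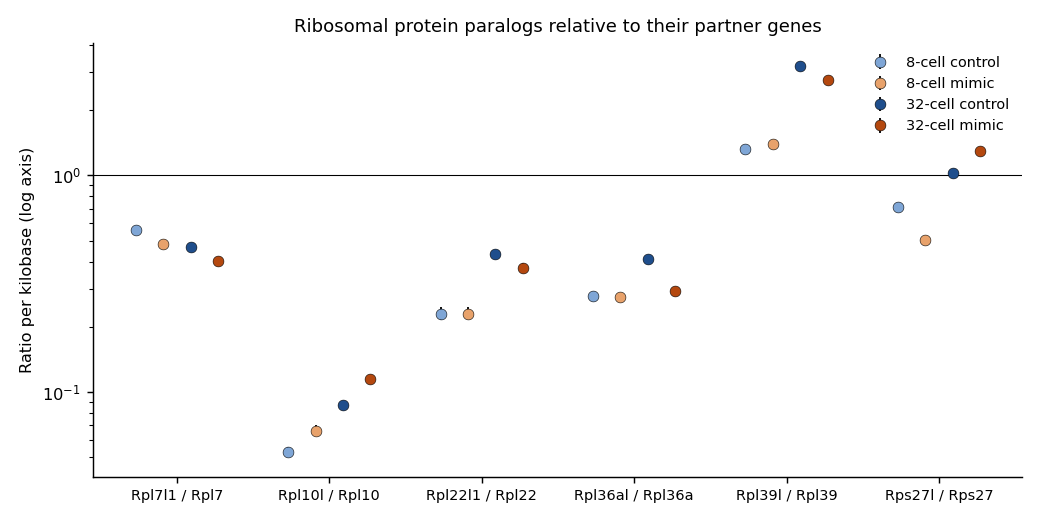
Ratio per kilobase of 6 ribosomal protein paralogs to their partner genes in the 4 groups, on a log axis, with 95% intervals for counting error that are mostly smaller than the points. Rpl39l lies above its partner in every group, and the ratio is higher at the 32-cell than at the 8-cell stage in all pairs but Rpl7l1 with Rpl7.

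Cells of the 2 lineages at the 32-cell stage did not differ in the summed level of the members by more than the spread of cells. Clustering without ribosomal protein genes, named by 9 markers each of inner cell mass (ICM) and trophectoderm (TE), gave 25 ICM-like and 14 TE-like cells in control and 10 and 29 in mimic. Classes set by marker score kept 25 and 14 in control and gave 17 and 22 in mimic. Pooled over both treatments, all 9 ICM markers were higher and all 9 TE markers lower in the ICM-like cells, Gata6 only at 129 against 125 CPM. These markers also named the classes, so their direction is a description and no separate support for the names. In control, ICM-like cells ran from 17166 to 29334 CPM (pooled 21916) and TE-like cells from 17731 to 35962 CPM (pooled 21959). In mimic, ICM-like cells ran from 17887 to 28262 CPM (pooled 22593) and TE-like cells from 17036 to 52049 CPM (pooled 24689), a log2 difference of -0.13 that was 0.17 when the classes were set by marker score. The ratio of mimic to control in summed level was 1.03 within the ICM-like and 1.12 within the TE-like class. The median log2 difference over members was -0.023 (39 of 80 above 0) and 0.135 (58 of 80 above 0).

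Few members were past 1.5-fold between the lineages. In control 1 member was higher in ICM-like cells (21.9% of all genes), Rpl22l1 at 71.35 against 42.9 CPM, and 0 were lower (16.2% of all genes). In mimic 0 were higher (15.9% of all genes) and 2 were lower (18.3% of all genes), among them Rpl10l at 26 against 83.5 CPM. Within the ICM-like and the TE-like class the mimic differences of Rps2 were 1.06 and 1.07, and those of Rpl29 were -1.10 and -0.64. Rpl10l differed by -0.29 within the ICM-like class, which held 10 mimic cells, and by 1.04 within the TE-like class. These classes were spread unevenly over the runs, since 7 of the 10 ICM-like mimic cells were in run 1, where Rpl10l was low, and 18 of the 29 TE-like ones in runs 2 and 3. Within the runs of mimic cells Rpl10l was at 13.28 CPM in ICM-like and 30.75 CPM in TE-like cells of run 1, at 24.2 (2 cells) and 137.8 CPM in run 2, and at 71.55 (1 cell) and 75.96 CPM in run 3. In each run it was higher in the TE-like cells, in run 3 by little.

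A pyrimidine tract near the transcript start was common among members. A tract was a C followed by at least 6 C or T in a row on the sense strand, within 15 bases on either side of an annotated RefSeq start. It was present for 31 of the 61 members with a start window (50.8%), against 927 of 5489 genes at the CPM minimum (16.9%) and 4421 of 27025 genes in all (16.4%). Windows of 30 bases are shown for members named above, with tracts in capitals, from RefSeq on GRCm38.p6: Rpl4 at chr9:64173372-64173401 (plus), Rps18 at chr17:33955651-33955680 (minus), Rpl22l1 at chr3:28805493-28805522 (plus), Rps2 at chr17:24720048-24720077 (plus) and Rpl41 at chr10:128549154-128549183 (minus).
Rpl4: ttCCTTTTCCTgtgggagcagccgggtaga
Rps18: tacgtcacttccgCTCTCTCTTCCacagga
Rpl22l1: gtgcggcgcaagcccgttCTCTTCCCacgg
Rps2: aggcagtcgagatctcgcgcttcttggagc
Rpl41: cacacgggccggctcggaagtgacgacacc

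Members with and without a tract had like medians in each comparison. With a tract they were -0.28 between control stages, -0.54 between mimic stages, 0.29 with the mimic at the 8-cell stage and 0.082 at the 32-cell stage. Without it they were -0.37, -0.52, 0.28 and 0.16. A start that is annotated elsewhere can miss a tract, so a window without these letters says nothing of the transcript in use.

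Genes that work with the ribosomal proteins did not all follow them. Their counts past 1.5-fold are to be read against those of all genes, which were 39% higher and 26.7% lower between control stages, 38.4% and 27% between mimic stages, 16.1% and 15% with the mimic at the 8-cell stage, and 14.4% and 13.3% at the 32-cell stage. The 6 cytoplasmic ribosomal proteins outside the naming rule, such as the stalk proteins Rplp0, Rplp1 and Rplp2, had medians of -0.32 and -0.45 between stages (control and mimic) and 0.35 and 0.20 with the mimic (8-cell and 32-cell), with 2 of the 6 at least 1.5-fold lower between mimic stages, Rplp2 and Fau. The 33 ribosome biogenesis genes at the CPM minimum had larger stage differences, with medians of -0.76 and -0.64 and 19 lower and 1 higher in each treatment. Nolc1, a nucleolar chaperone of small nucleolar RNPs, was at 983 and 260 CPM at the 2 stages in control, and Eif6, which keeps the subunits apart, at 1040 and 340 CPM. With the mimic this list had medians of 0.12 (1 higher, 2 lower) and 0.068 (4 higher, 0 lower).

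RNA polymerase I and its factors, which make the ribosomal RNA, were lower still at the 32-cell stage. Their 15 genes had stage medians of -1.11 (10 lower, 0 higher) in control and -1.13 (11 lower, 0 higher) in mimic, against the members' -0.32 and -0.51. Rrn3, which recruits the polymerase to the ribosomal DNA, was at 988 and 456 CPM at the earlier and the later stage in control, and Taf1d, of its promoter factor, at 403 and 98.1 CPM in mimic. With the mimic the list's medians were -0.056 (1 higher, 2 lower) and -0.097 (1 higher, 0 lower).

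Translation factors and other transcripts with a known pyrimidine tract, 15 genes, had medians of -0.43 (1 higher, 3 lower) and -0.24 (0 higher, 5 lower) between stages and 0.20 (0 and 0) and -0.080 (1 and 1) with the mimic. Eef1a1, the elongation factor that brings transfer RNAs, was higher at the later control stage, at 1660 and 2650 CPM, and Eef2 was lower, at 1640 and 989 CPM. The 15 genes of mTORC1, S6 kinase, Larp1 and MYC had medians of -0.066 (4 higher, 4 lower), -0.20 (3 higher, 4 lower), -0.020 (1 higher, 3 lower) and 0.005 (2 higher, 4 lower) in the order of the 4 comparisons. Myc, an activator of ribosomal genes, was at 124, 38.8, 35.7 and 12.4 CPM in 8-cell control, 8-cell mimic, 32-cell control and 32-cell mimic.

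Mitochondrial ribosomal proteins, which serve the separate ribosome of the mitochondrion, had medians above 0 at the later stage. Of 75 at the minimum, 35 (46.7%, where 39% of all genes were) were at least 1.5-fold higher and 5 lower at the later control stage (median 0.52), and 26 (34.7%, where 38.4% were) were higher and 5 lower in mimic (0.25). The lower share of 6.67% in both treatments stood below the 26.7% and 27% of all genes. With the mimic 15 were higher and 1 lower at the 8-cell stage (0.24) and 7 higher and 2 lower at the 32-cell stage (0.041). Mrps35 was at 12.8 and 78.1 CPM and Mrpl1 at 26.3 and 130 CPM at the 2 control stages.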

How the data were processed

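Single-cell Smart-seq2 libraries of mouse embryo cells in 4 groups were analysed. The authors deposited estimated counts per gene and cell, not normalised, made with STAR 2.5.1b and RSEM 1.3.0 (mm10) per the labels. All values were whole numbers. Counts of the 13 mt- genes were left out, counts were summed over the cells of a group, and CPM were formed with exact Poisson 95% intervals. Differences are log2(pooled CPM + 1). A difference counted as past at 1.5-fold, beside all 6775 genes at 20 CPM or more. Because no label names an embryo, no test or p-value was computed. Single cells had been picked by hand, and no doublet caller or cell filter was applied. All cells of both stages were clustered together with Seurat 5.3.0 in R 4.3.3 (2000 variable genes, 25 components, resolution 0.6) without Rpl and Rps genes, and the 32-cell cells fell into a pair of clusters apart from the 8-cell cells. Transcript lengths, 3′ UTRs and coding sequences were from GENCODE M21, and start windows and the miRNA from RefSeq (GRCm38.p6). Named members were the 4 largest differences in each direction per comparison, the 5 highest per kilobase, all paralogs and X-linked members and those nearest the minimum, and per list up to 4 genes by size. Rpl12, Rps27 and other genes named beside these were chosen after their values were seen. Some genes that the rule names are not reported here. Members, paralogs and gene lists were chosen with earlier results of these data known. The calculations were tested on simulated data. Alternatives were other scalings, pseudocounts, minimums and folds, thinned cells, left-out runs, cells of a single sex-linked type and other lineage classes. Tools were Python 3.11.15, numpy 2.4.6 and pandas 2.3.3.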

Additional observations from a re-analysis of the deposited data

Results flagged for a closer look

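Some members differed in opposite directions under the same contrast in different groups, and the difference between the contrasts was not tested. Between the stages (control, then mimic), the log2 differences were -0.14 and 0.54 for Rpl10l, 0.066 and -0.72 for Rpl13a, 0.22 and -0.57 for Rpl22, 0.21 and -0.33 for Rpl23a, and -0.23 and 0.41 for Rps2. The sign for Rpl10l depended on the run. In control it was 0.73 without run 1 of 32-cell control and -1.31 without run 2. In mimic it was -0.035 without run 2 of 32-cell mimic, and run 1 of 32-cell mimic lay at 24.31 CPM, below the 47.91 CPM of 8-cell mimic. The sign for Rpl22 in control rested on run 1 of 8-cell control, without which 2 cells are left and it was -0.14. For Rpl13a the 8-cell mimic group stood apart, at 970.8 CPM against 567.3, 594.1 and 590.3 CPM in 8-cell control, 32-cell control and 32-cell mimic.

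Between mimic and control (8-cell, then 32-cell stage), they were -0.046 and 0.56 for Rpl10, 0.50 and -0.29 for Rpl22, 0.49 and -0.50 for Rpl22l1, 0.34 and -0.056 for Rps15a, and -0.10 and 0.40 for Rps27l. Among 8-cell cells with Y-linked counts above Xist the difference was 0.016 for Rpl10, -0.25 for Rpl22l1 and 0.23 for Rps27l, so those signs depended on the cells used. Rpl22 and its paralog Rpl22l1 shared their signs over all cells, and Rpl10 is X-linked, where the mimic and the sex-linked transcripts cannot be told apart at the 32-cell stage.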

How the results depend on the processing

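The 4 median differences over members kept their sign under every alternative run, at -0.39 to -0.20 and -0.59 to -0.32 between stages (control, mimic) and 0.18 to 0.49 and 0.016 to 0.21 with the mimic (8-cell, 32-cell). Size factors moved the median of all genes to 0.30, 0.38, -0.073 and -0.008 in these comparisons, so members are read relative to it. Of 271 alternative values of the main results 231 stayed within their limits, 40 moved and 0 past 1.5-fold were reversed, while 1 moved value changed sign (ICM-like over TE-like mimic cells, from -0.13 to 0.17 by marker score). For named genes 1169 of 1177 stayed, 6 moved and 2 past 1.5-fold were reversed, Rpl10 (0.031) and Rps4x (0.14) between control stages where Y-linked counts exceeded Xist. A further 39 values of named genes whose reported difference was under 1.5-fold had the opposite sign. Between control stages Rpl10l (-0.14) was at 0.73 without run 1 of 32-cell control. With the mimic at the 8-cell stage Rpl10l went from 0.28 to -1.49 in cells whose Y-linked counts exceeded Xist. These values of Rpl10l were among the 1169 that stayed. Staying within the limits thus did not exclude a changed sign or a large shift of a named gene. The lower fold limit named below lies under 1.5-fold. The share of all genes past the lower limit or past 2-fold is not given. The member counts at these limits therefore have no background to be read against. Counts of members past a fold moved most, as follows.

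Between control stages the count of higher members was 0 at a minimum of 100 CPM, 2 without run 1 of 32-cell control and 2 at the lower fold limit. The count of lower members was 15 without run 2 of 32-cell control, 20 without run 1 of 8-cell control, 5 without X-linked members, 3 in cells whose Y-linked counts exceeded Xist, 40 at the lower fold limit and 2 at the upper limit of 2-fold. Between mimic stages there were 3 higher and 11 lower with size factors, 2 higher and 19 lower without run 1 of 32-cell mimic, 3 higher and 61 lower at the lower fold limit, 0 higher and 2 lower at 2-fold, and 2 higher without cells under 6000 genes.

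With the mimic at the 8-cell stage there were 2 higher with size factors, 9 higher and 1 lower without run 1 of 8-cell control, 26 higher and 1 lower in cells whose Y-linked counts exceeded Xist with no minimum (31 and 1 in Y cells, which need 20 CPM), 3 higher in Xist cells, 3 higher without cells under 6000 genes, 36 higher at the lower fold limit and 0 at the upper limit of 2-fold. Among 32-cell cells there were 3 higher and 0 lower at 100 CPM, 8 higher and 0 lower without run 1 of 32-cell mimic, 3 higher without run 2, 2 lower without run 3, 2 higher and 2 lower without run 1 of 32-cell control, 14 higher and 2 lower at the lower fold limit, and 1 higher and 0 lower at 2-fold.

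The leave-out of low-gene cells, the 20 CPM definition of Xist cells the sum of Rps18 with Gm10260, the leave-out of cells titled 1 to 8 for Rps2 and Rpl29, and the paralog shares by type and run were chosen after seeing the data. Cells with Xist and without any Y-linked count were too few in 8-cell mimic, and that setting was not run. No paired analysis was possible because no result comes from a test. The causes of these shifts were not tested.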
